A study of Mus musculus with 12 samples.

Results

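Kidney 1 was set against kidney 2 within each of 6 mice, using all 12 libraries of the series, 1 from each kidney. The count columns were paired by the mouse number and the kidney number in their names. Kidney numbers are labels only: the sources used here do not say which number is the left kidney. The 3 TG+ mice (43-29, 43-49 and 43-75) carried the TRACK/gamma-HIF1alphaM3 transgene, a mutated and constitutively active HIF1α expressed in renal proximal tubules, and the 3 TG- mice (43-26, 43-50 and 43-76) were wild-type littermates. All 6 mice were C57BL/6 males, 18 months old, with no treatment named, and RNA came from a slice of the cortex of each kidney. The question was how far the kidneys of 1 mouse differed, in which genes, and whether they differed more in TG+ than in TG- mice.

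The mouse kidney cortex holds glomeruli, convoluted proximal tubules, distal tubules and vessels. The straight part of the proximal tubule and the thick ascending limb of the loop of Henle run inward from the cortex to the outer medulla, so they lie mostly deeper than the convoluted part. Fat and connective tissue surround the kidney and enter it at the hilum. HIF1α is a transcription factor that is degraded when oxygen is present, and its targets include genes of glycolysis and of glucose and lactate transport.

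The libraries held between 21888584 and 33704850 counted reads, and 18944 genes had enough reads to be tested. Levels are given as CPM, read counts divided by the normalized library size and scaled to a common total, and differences as log2 CPM of kidney 2 minus kidney 1, with a prior count of 2 added. The proximal tubule phosphate transporter Slc34a1 lay between 4818 and 9077 CPM in the 12 libraries, a high level in a tissue labelled as cortex. Ndufa4l2, a HIF target that encodes a mitochondrial protein, lay between 159 and 239 CPM in every TG+ library and between 2.20 and 3.76 CPM in every TG- library, so each library matched its genotype label. Hif1a itself did not separate the labels, at 82.0 to 111 CPM in TG+ libraries and 100 to 107 CPM in TG- libraries. In every library the nearest other library was the other kidney of the same mouse, with a Pearson r between 0.9958 and 0.9977 across 12289 genes, against at most 0.9933 for any library of another mouse.

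The kidneys of a TG+ mouse differed more than the kidneys of a TG- mouse in these 6 animals. The kidney-to-kidney biological variation, edgeR's common BCV with each pair of kidneys taken as replicates, was 4.39% in 43-29, 6.04% in 43-49 and 5.08% in 43-75. It was 3.25% in 43-26, 3.29% in 43-50 and 2.16% in 43-76. All TG+ values lay above all TG- values, with a mean difference of 2.27 percentage points (exact permutation test, 2-sided p = 0.1, n = 3 against 3, the smallest p that 20 assignments allow). No arrangement of 3 mice against 3 can give a smaller value. The submitters' label for the data speaks of 3 pairs and lists the mice in the order 43-49, 43-50, 43-26, 43-29, 43-75 and 43-76. Whether each TG+ mouse was matched to a TG- mouse is not stated, and no test here used such pairs.

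The SD of the log2 differences over the 12289 genes with a mean of at least 5 CPM also put all TG+ above all TG- mice, with a narrower gap. It was 0.140, 0.147 and 0.145 in 43-29, 43-49 and 43-75, and 0.137, 0.125 and 0.117 in 43-26, 43-50 and 43-76 (exact permutation p = 0.1). Counting error alone would have given an SD between 0.0874 and 0.104 in these mice. Among the 1918 genes at 100 CPM or more, where counting error is small, the SD was 0.0884, 0.115 and 0.0928 in the TG+ mice and 0.0752, 0.0760 and 0.0564 in the TG- mice. Among genes at 5 to 20 CPM the genotypes overlapped, with 0.181 in 43-29 and 0.182 in 43-26. Among genes at 1 to 5 CPM, 43-29 and 43-49 lay below all TG- mice, at 0.335 and 0.330 against 0.339 to 0.355, and 43-75 lay above them at 0.375. With genes from 1 CPM on included, the mean gap fell from 0.0175 to 0.00891. The share of genes within 1.1-fold between the kidneys was 75.8% to 78.3% in TG+ mice and 80.3% to 83.0% in TG- mice, and 8 to 23 genes per mouse were over 2-fold apart. Genes over 1.5-fold apart did not separate the genotypes, at 47 to 69 in TG+ and 28 to 57 in TG- mice.

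**Figure D1:**
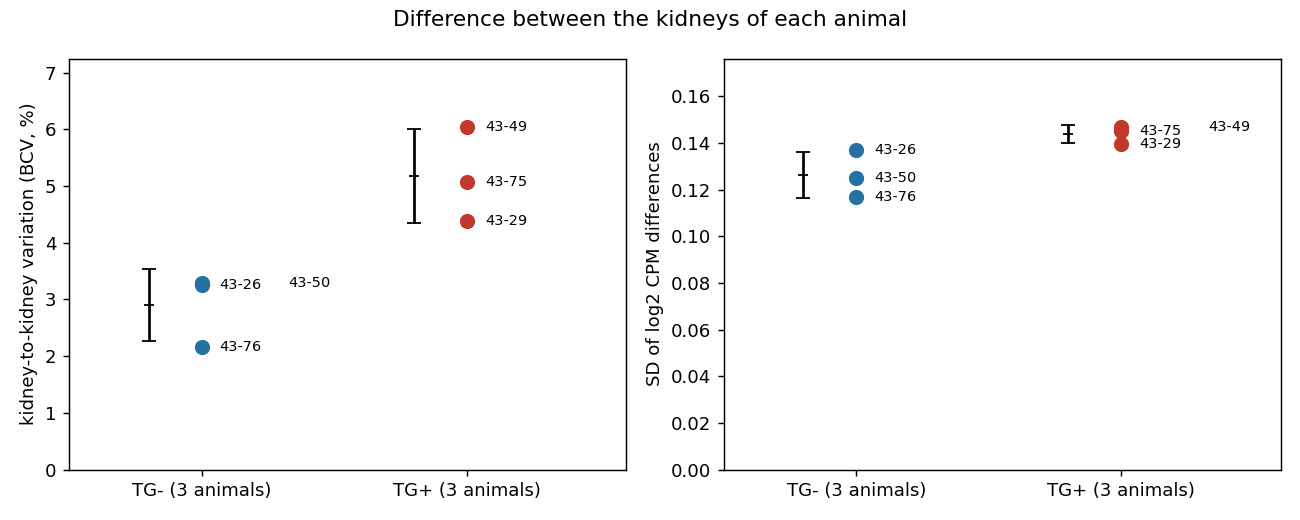
Kidney-to-kidney variation (edgeR's common BCV in percent, left) and the SD of the log2 CPM differences over 12289 genes (right) for each mouse, with the mean ± SD of 3 mice beside the points. All 3 TG+ mice sit above all 3 TG- mice in both panels, from 4.39% against at most 3.29% on the left.

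Across the 6 pairs, 3 red blood cell genes were higher in kidney 2. Hbb-bs and Hbb-bt encode adult β-globin chains, and Alas2 encodes the first enzyme of heme synthesis in red cell precursors. They were the only 3 genes called across animals by edgeR's quasi-likelihood test with the animal as a block (Benjamini-Hochberg adjusted p below 0.05), which is 0.0158% of the genes tested. Genes called higher in kidney 1 made up 0%, and 1050 genes had an unadjusted p below 0.05. The 250 bases before each start site are printed to show where the red cell motifs AGATAA, bound by factors such as GATA1, and CACCC, bound by factors such as KLF1, lie in the 3 called genes.
Hbb-bs: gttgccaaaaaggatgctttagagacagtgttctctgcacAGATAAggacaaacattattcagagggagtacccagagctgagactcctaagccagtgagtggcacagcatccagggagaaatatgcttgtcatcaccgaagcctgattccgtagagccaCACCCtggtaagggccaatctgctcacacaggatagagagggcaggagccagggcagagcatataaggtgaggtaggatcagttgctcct
Hbb-bt: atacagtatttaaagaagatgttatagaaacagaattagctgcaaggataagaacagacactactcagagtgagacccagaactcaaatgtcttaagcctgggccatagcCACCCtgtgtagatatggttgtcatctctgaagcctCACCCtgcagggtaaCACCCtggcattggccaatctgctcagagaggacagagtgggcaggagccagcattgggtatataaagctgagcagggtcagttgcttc
Alas2: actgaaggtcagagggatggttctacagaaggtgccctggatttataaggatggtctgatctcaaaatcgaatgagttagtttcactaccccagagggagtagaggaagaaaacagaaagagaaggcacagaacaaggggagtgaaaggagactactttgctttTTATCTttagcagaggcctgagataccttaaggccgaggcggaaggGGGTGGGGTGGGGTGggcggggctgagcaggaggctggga
The sequences are RefSeq's (GRCm38.p6), at chr7:103827929-103828178 on the minus strand, chr7:103813924-103814173 on the minus strand and chrX:150547167-150547416 on the plus strand, and capitals mark either motif on either strand, with no overlap between them. AGATAA was found 1 time for Hbb-bs and Alas2 and 0 times for Hbb-bt, and CACCC 1, 3 and 3 times for Hbb-bs, Hbb-bt and Alas2. Of 32851 RefSeq start sites, 9.99% had AGATAA and 52.0% had CACCC in such a window, so CACCC alone is common.

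Hbb-bs went from 20.5 CPM in kidney 1 to 43.8 in kidney 2 of 43-26, from 31.0 to 49.0 in 43-50 and from 28.0 to 38.8 in 43-76. In the TG+ mice it went from 58.5 to 66.2 in 43-29, from 52.9 to 86.7 in 43-49 and from 39.95 to 68.4 in 43-75. Kidney 2 was the higher kidney in 6 of 6 mice, a direction that 1.53% of the 12289 genes shared. The fitted log2 difference was 0.63 with an SE of 0.08 for Hbb-bs (adjusted p = 0.0095), 0.71 ± 0.10 for Hbb-bt (adjusted p = 0.018) and 0.60 ± 0.08 for Alas2 (adjusted p = 0.014). Hbb-bt and Alas2 were also higher in kidney 2 in 6 of 6 mice, between 0.28 and 1.17 and between 0.21 and 0.84 on the log2 scale. The α-globin genes Hba-a1 and Hba-a2 had between 1 and 12 reads per library and did not pass. They were not higher in kidney 2 throughout: 1 of them was lower there in 43-29 and both were in 43-50. The 5 tested genes of the red blood cell list had a median difference between 0.21 and 0.93 in the 6 mice, while the median of all genes lay within 0.01 of 0. As 3 of these 5 are the called genes, the list median follows from the calls and adds no separate support. Hbb-bs and Hbb-bt are near-identical copies, so how reads were split between them is uncertain.

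Leaving out both kidneys of 43-49, 43-50 or 43-75 left 0 called genes each time, leaving out 43-26 left 1, and leaving out 43-29 gave 28, with 5 higher in kidney 2 and 23 higher in kidney 1. The differences stayed positive, at 0.56 to 0.74 for Hbb-bs, 0.64 to 0.81 for Hbb-bt and 0.53 to 0.69 for Alas2 over the 6 fits that left out 1 mouse. The fit that ignored the pairing called 0. On simulated counts in which nothing had been changed, the test across animals called as many genes as on the real counts. In bulk tissue, more red cells and more globin RNA per cell cannot be told apart.

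**Figure D2:**
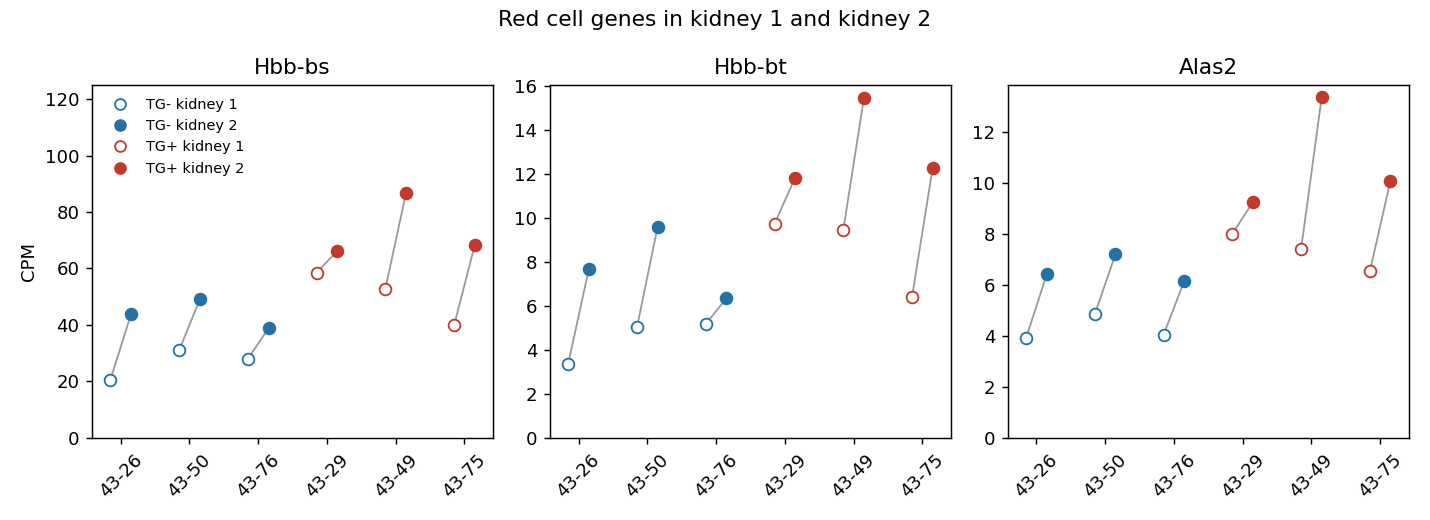
Levels in CPM of Hbb-bs, Hbb-bt and Alas2 in kidney 1 (open points) and kidney 2 (filled points) of each mouse, joined by a line. Each line rises from kidney 1 to kidney 2, for Hbb-bs from 20.5 to 43.8 CPM in 43-26 and from 58.5 to 66.2 CPM in 43-29.

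No gene was called for a kidney difference that itself differed between TG+ and TG- mice. The interaction test called 0% of the genes (smallest adjusted p = 0.986), with 537 genes at an unadjusted p below 0.05. DESeq2 with the same design also called 0, while 5 genes were called without 43-49 and 36 without the filter on low counts. The genes with the smallest p were Cilp, a cartilage matrix protein, Cidec, a lipid droplet protein, and Nnat, a small membrane protein, and none passed. Nnat was higher in kidney 2 of all TG+ mice, at 1.02 and 1.34 CPM in 43-29, 1.57 and 2.84 in 43-49, and 1.64 and 2.52 in 43-75, and lower in kidney 2 of all TG- mice, at 1.14 and 1.12 in 43-26, 2.17 and 1.30 in 43-50, and 2.10 and 0.912 in 43-76.

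Differences of HIF targets between the kidneys of a mouse were small. Of the 27 genes in the list of HIF targets and glycolysis, 0 were called in any animal, where at most 0.0422% of all genes were called in 1 direction, so the count says little. Their median difference lay between -0.04 and 0.02. Of the 27 genes, 18, 23 and 17 were higher in kidney 1 of 43-29, 43-49 and 43-75, and 12, 17 and 15 in 43-26, 43-50 and 43-76. Car9, a carbonic anhydrase of the cell surface, was at 172 and 161 CPM in kidneys 1 and 2 of 43-29, 127 and 117 in 43-49, and 158 and 153 in 43-75. It was also higher in kidney 1 of the TG- mice, by a difference between -0.17 and -0.02, so in 6 of 6 mice, as were 1.22% of the 12289 genes, and did not pass across animals (adjusted p = 0.84). Ndufa4l2 was at 236 and 239 CPM in 43-29, 167 and 159 in 43-49, and 209 and 202 in 43-75. Among the TG+ mice, both genes were lowest in both kidneys of 43-49 and highest in both kidneys of 43-29. The glucose transporter Slc2a1 was at 229 and 221 CPM in 43-29, 127 and 122 in 43-49, and 216 and 207 in 43-75. The glycolytic kinase Pfkp, the pyruvate dehydrogenase kinase Pdk1 and Hif1a differed by at most 0.09, 0.13 and 0.15 in any mouse. The lactate transporter Slc16a3 differed by at most 0.13 in TG+ mice and by 0.26 to 0.58 in TG- mice, where it lay between 0.809 and 2.16 CPM.

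A few metabolic, serpin, immunoglobulin and mitochondrial genes differed over 2-fold in several mice. For Bcat1, Cyp7b1 and Serpina1f the direction changed from mouse to mouse, while each over 2-fold difference of Ighm was higher in kidney 1. Of 12289 genes, 12240 stayed within 2-fold in all 6 mice and 12 were over 2-fold apart in at least 3. Those 12 included Bcat1, a branched-chain aminotransferase (5 mice), Cyp7b1, an oxysterol hydroxylase, and Serpina1f, a serpin (4 mice each), and Serpina1d, the organic anion transporter Slc22a13 and the methyltransferase-like gene Mettl7a2 (3 mice each). The others were the immunoglobulin genes Ighm and Ighg2c and an unnamed gene, the mucin Muc2, and the mitochondrial transfer RNAs mt-Tl2 and mt-Ts2. All 12 were picked for these values, so the numbers are a description without a test.

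Bcat1 went from 11.2 to 1.52 CPM in 43-26, from 3.998 to 1.65 in 43-50 and from 2.39 to 2.16 in 43-76. In the TG+ mice it went from 46.4 to 13.2 in 43-49 and from 25.7 to 4.88 in 43-75, but from 6.26 up to 33.5 in 43-29. Kidney 2 was the higher kidney in 43-29 alone. Cyp7b1 had the same direction as Bcat1 in all mice but 43-76, going from 44.6 to 13.4 CPM in 43-26, from 96.8 to 28.1 in 43-49 and from 42.4 to 9.35 in 43-75, against 11.2 to 42.8 in 43-29. Serpina1f had differences of -2.18, -1.72 and -2.36 in those first 3 mice and 2.05 in 43-29. In 43-76 the differences of Cyp7b1 and Serpina1f were 0.41 and 0.44.

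No such gene was called in the fit of 1 animal, which takes its spread from the other 5 pairs and can therefore hardly call a gene that varied in most of them. Serpina1 genes are near-identical copies of one another, so their separate counts are uncertain.

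**Figure D3:**
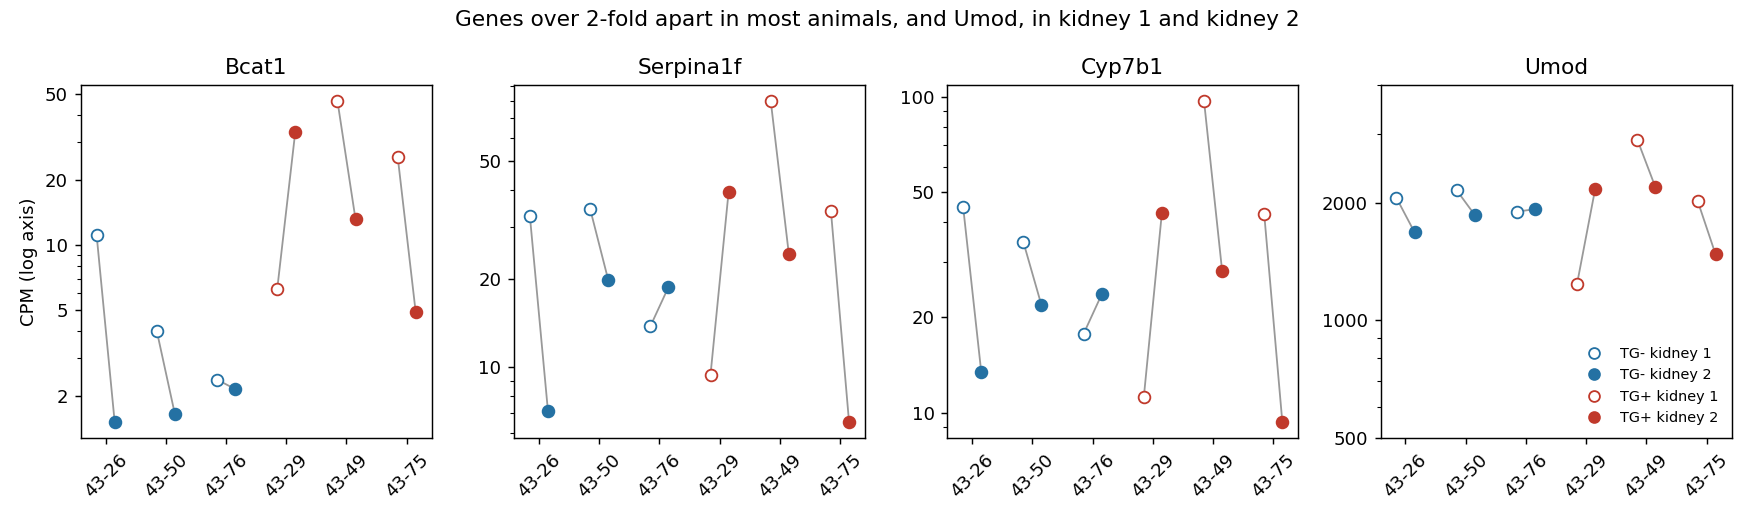
Levels in CPM (log axis) of Bcat1, Serpina1f, Cyp7b1 and the thick ascending limb gene Umod in kidney 1 (open) and kidney 2 (filled) of each mouse. Only 43-29 rises steeply from kidney 1 to kidney 2 in all 4 panels, for Bcat1 from 6.26 to 33.5 CPM, and no line of 43-76 spans more than 0.44 log2 units.

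Mouse 43-29 (TG+) had higher levels of thick ascending limb genes in kidney 2, though none was called in the fit of 1 animal. Umod, which encodes uromodulin, went from 1241 to 2166 CPM, and Slc12a1, the loop diuretic-sensitive cotransporter, from 334 to 622. All 8 genes of the thick ascending limb list were higher in kidney 2, with a median of 0.69 against 0.00 over all genes, and 8 of 8 had an unadjusted p below 0.05. The inner medulla and thin limb list had a median of 0.45. Higher in kidney 1 of 43-29 were all 11 interferon response genes (median -0.27), all 6 intercalated cell genes (-0.13), 9 of 10 macrophage and dendritic cell genes (-0.21) and 9 of 10 endothelial genes (-0.16). Over all genes, those called made up 0% in each direction, with 865 genes at an unadjusted p below 0.05. When a common kidney 2 minus kidney 1 term was added to the fit, 50 genes (0.264% of those tested) were called in 43-29, all with a kidney 2 minus kidney 1 difference above that of the other pairs. These held 5 of the 8 thick ascending limb genes, Egf, Slc12a1, Umod, Ppp1r1a and Ptger3, 2 of the 8 straight proximal tubule genes, 1 inner medulla and thin limb gene and 1 liver gene. In that fit the difference of 43-29 from the other pairs was 0.74 ± 0.08 for Egf (adjusted p = 2.9e-04), 1.07 ± 0.12 for Umod (adjusted p = 4.6e-04) and 4.34 ± 0.36 for Bcat1 (adjusted p = 3.8e-05). DESeq2 called 1 gene in 43-29.

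In 43-29 the straight proximal tubule list had a median of 0.09, with 6 of 8 genes higher in kidney 2 and 2 at an unadjusted p below 0.05. In 43-49 and 43-75 the thick ascending limb list had medians of -0.18 and -0.34, and the straight proximal tubule list -0.27 and -0.29, with 1 of 8 genes higher in kidney 2 in each case. An unadjusted p below 0.05 was found for 0 and 1 of the 8 thick ascending limb genes and for 6 and 6 of the 8 straight proximal tubule genes, beside 1425 and 1290 of the 18944 genes. The 10 genes of the convoluted proximal tubule list were all higher in kidney 2 of these mice, with medians of 0.24 and 0.15. In 43-49 other lists were also higher in kidney 2, namely distal convoluted and connecting tubule (6 of 6, median 0.28), intercalated cell (6 of 6, 0.24) and mitochondrial genome (8 of 8, 0.16), while inner medulla and thin limb was higher in kidney 1 (4 of 4, -0.89). Slc5a2, the glucose cotransporter of the early proximal tubule, went from 561 to 706 CPM in 43-49 and from 618 to 683 in 43-75 and did not pass (adjusted p = 0.083 and 0.84). The TG- mouse 43-26 had a thick ascending limb median of -0.17, close to that of 43-49. In the TG- mice the medians lay between -0.17 and 0.02 for the thick ascending limb and between -0.02 and 0.05 for the convoluted part. Straight proximal tubule genes were higher in kidney 1 in 7 of 8 cases in 43-26 (median -0.12) and 8 of 8 in 43-50 (-0.09), as in 43-49 and 43-75, and 6 of 8 were higher in kidney 2 of 43-76 (0.04). Over the 7607 genes at 20 CPM or more, the differences of 43-29 and 43-75 had a Pearson r of -0.42 and those of 43-49 and 43-75 an r of 0.38. The TG- mouse 43-26 gave 0.31 with 43-75, 0.28 with 43-49 and -0.21 with 43-29. These values are across genes, which are not independent. The values for 43-76 against the other mice lay between -0.21 and 0.07. How deep each slice was cut is not in the sources used here, and its part in these differences was not tested.

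**Figure D4:**
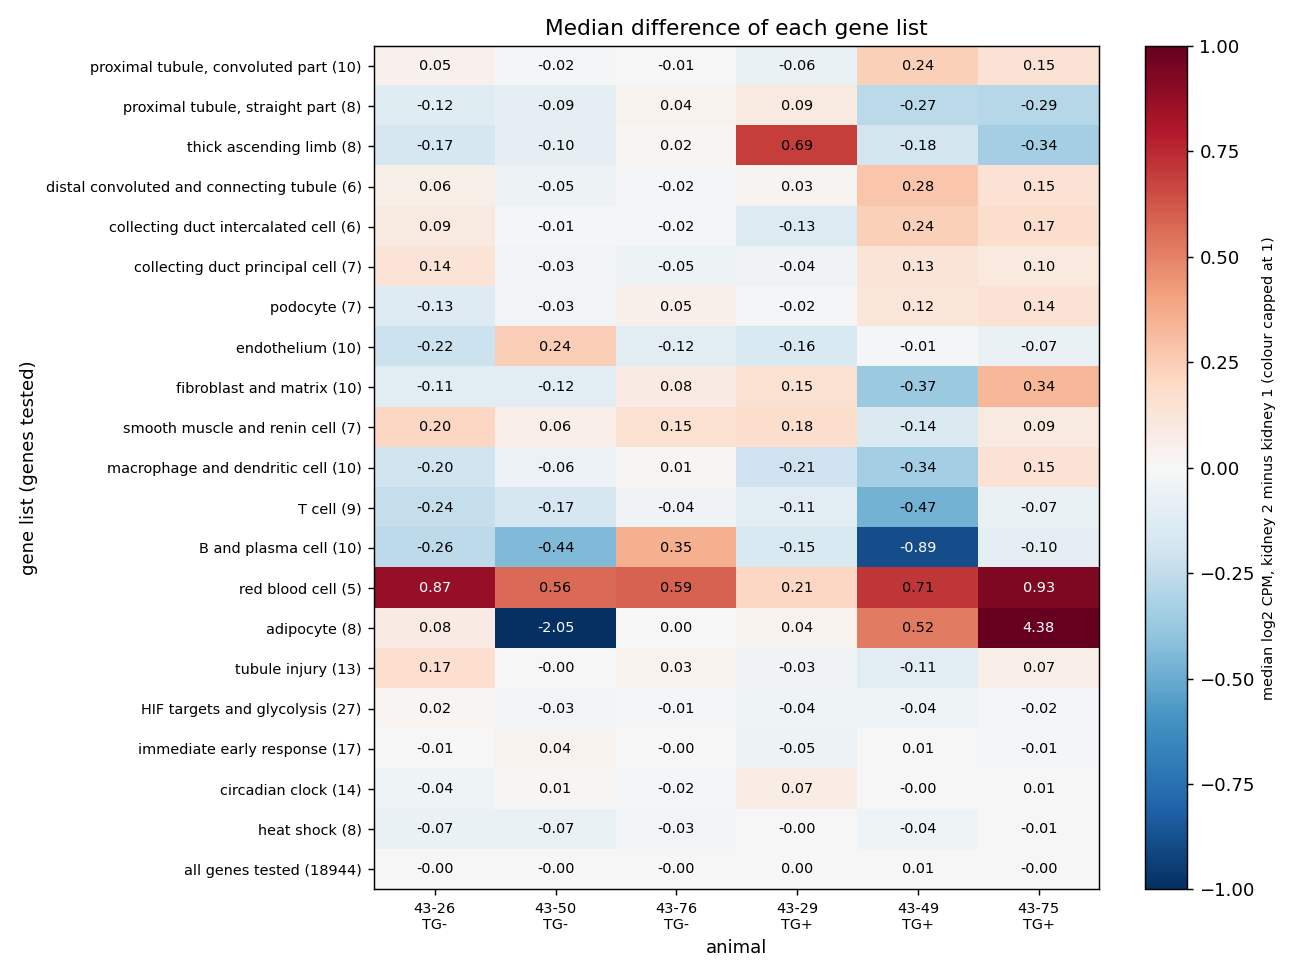
Median log2 CPM difference of each gene list (rows, with the number of genes tested) in each mouse (columns), kidney 2 minus kidney 1, with red for higher in kidney 2. The red blood cell row is positive in all 6 mice (0.21 to 0.93), and the thick ascending limb row is 0.69 in 43-29 and -0.34 in 43-75. Of the 5 red blood cell genes, 3 are those called across animals.

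Mouse 43-49 (TG+) had higher levels of antibody genes in kidney 1. The 8 called genes, 0.0422% of those tested, were all higher in kidney 1, and the called genes higher in kidney 2 made up 0%. Igkv4-63, a variable segment of the κ light chain, was lower in kidney 2 by a log2 difference of -2.11 ± 0.13 (adjusted p = 1.8e-06). Ighv1-18, a heavy chain segment, gave -1.73 ± 0.16 (adjusted p = 1.2e-04), and Igkv4-57-1 gave -1.59 ± 0.13 (adjusted p = 1.9e-05). Variable segments are near-identical copies, so reads of 1 may have been counted for another. The other 5 were 3 genes without a symbol in the table, the small RNA gene Gm23935 and Cp, which encodes the copper protein ceruloplasmin, at 81.5 and 50.01 CPM (adjusted p = 0.046). With the common kidney term, Igkv4-63, Ighv1-18, Igkv4-57-1 and 1 gene without a symbol were still called, while Cp and Gm23935 were not. Without 43-26, 43-29, 43-50, 43-75 or 43-76, the number of called genes was 14, 24, 19, 57 or 5.

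The wider B cell and plasma cell list had 10 of 10 genes higher in kidney 1 of 43-49, with a median of -0.89 and 9 genes at an unadjusted p below 0.05. The constant segment of IgM, Ighm, was at 1024 and 238 CPM and the κ constant segment Igkc at 1480 and 848. None of the 10 passed (adjusted p = 0.083 for Ighm). Genes of other cell types were also higher in kidney 1: all 10 macrophage and dendritic cell genes (median -0.34, 7 at an unadjusted p below 0.05), all 10 fibroblast and matrix genes (median -0.37, 5 below 0.05) and all 9 T cell genes (median -0.47, 2 below 0.05). Their part in the antibody gene calls was not tested. In 43-50 (TG-) the B cell and plasma cell list was again higher in kidney 1 in 10 of 10 genes, with a median of -0.44 and Ighm at 371 and 149 CPM. In 43-26 it was higher in kidney 1 in 10 of 10 genes with a median of -0.26, and in 43-76 it was higher in kidney 2 in 8 of 10, with a median of 0.35. Across the 6 mice Ighm gave -1.13 ± 0.22 and did not pass (adjusted p = 0.25).

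Mouse 43-75 (TG+) had higher levels of fat cell genes in kidney 2. Its 8 called genes, again 0.0422%, were all higher in kidney 2, with 0% higher in kidney 1. Lep, the hormone leptin of fat cells, went from 0.273 to 7.96 CPM (log2 difference 4.84 ± 0.51, adjusted p = 0.0046), and Plin1, which coats lipid droplets, from 0.0781 to 3.41 (5.37 ± 0.84, adjusted p = 0.034). The haptoglobin gene Hp went from 1.56 to 14.7 CPM (3.23 ± 0.50, adjusted p = 0.034). Car3, a carbonic anhydrase abundant in fat, went from 28.4 to 78.7, and Fabp4, a fatty acid binding protein, from 28.4 to 44.2. The other called genes were Gfpt2, Apob and Fbn1.

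All 8 tested genes of the adipocyte list were higher in kidney 2 of 43-75, 4 of them called, with a median of 4.38, or 1.05 over the 2 members with a mean of at least 5 CPM. In the fibroblast and matrix list 8 of 10 genes were higher in kidney 2 as well, with a median of 0.34 and 4 genes at an unadjusted p below 0.05, and its part in these calls was not tested. Adipoq, which encodes the fat cell hormone adiponectin, had 4 reads in kidney 1 and 235 in kidney 2. Reads of it were not limited to that kidney. In 43-49 it had 161 and 209 reads, and all 8 adipocyte genes were higher in kidney 2 there too, with a median of 0.52 and 0 called. It had 91 and 8 reads in 43-50, where 0 of 8 adipocyte genes were higher in kidney 2 and the median was -2.05, or -0.27 over the same 2 members. In 43-26, 43-29 and 43-76 no library held a read of Adipoq, and a count of 0 allows up to 3 reads, for counting error only. With the common kidney term, 0 genes were called in 43-75, and leaving out 43-26, 43-29 or 43-76 left 3, 2 or 2 called genes. Without 43-49, 15 were called, and without 43-50, 20.

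Mouse 43-50 (TG-) had higher levels of a pair of matrix genes in kidney 1. Smoc2, a calcium-binding matrix protein, went from 10.3 to 2.01 CPM (-2.36 ± 0.22, adjusted p = 4.1e-04), and Cpxm2, a carboxypeptidase-like secreted protein, from 6.14 to 1.14 (-2.42 ± 0.23, adjusted p = 4.1e-04). They made up 0.0106% of the genes tested, and 0% were called higher in kidney 2. Without 43-26 there were 4 called genes, and without 43-75 there were 5. GENCODE's span of Fgfr2 covers Cpxm2, although RefSeq's does not, so reads of the former could have been counted for it. The matrix genes Cilp and Thbs4, chosen after their values were seen, went from 3.02 to 0.472 CPM and from 3.75 to 1.22 and did not pass (adjusted p = 0.097 and 0.25).

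The levels of these matrix genes split the libraries. Smoc2 was at 14.6 to 18.6 CPM in both kidneys of 43-49 and 43-75 and at 10.3 CPM in kidney 1 of 43-50, and at 0.954 to 2.12 CPM in the other 7 libraries. Kidney 1 of 43-50 also had more Adipoq. In 43-75 Smoc2 was at 14.9 CPM in both kidneys, and Adipoq had 4 and 235 reads. The part of fat tissue in the matrix gene levels was not tested. The endothelial list was higher in kidney 2 of 43-50 in 10 of 10 genes, with a median of 0.24, and Plvap, a protein of fenestrated vessels, went from 73.7 to 95.1 CPM. No endothelial gene passed in the fit of 1 animal. With the common kidney term 4 genes (0.0211% of those tested) were called in 43-50, Smoc2 and Cpxm2 again, Cilp (-3.09 ± 0.39, adjusted p = 0.0091) and Plvap (0.52 ± 0.07, adjusted p = 0.022).

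Mouse 43-26 (TG-) had 2 called genes, 0.0106% of those tested, both higher in kidney 2, and 0% higher in kidney 1. Havcr1, the injury marker KIM-1 of proximal tubules, went from 3.22 to 7.004 CPM (1.12 ± 0.16, adjusted p = 0.046). Krt13, a keratin of stratified epithelium that lies under the level for naming, went from 1 read to 118 (adjusted p = 0.046). All 13 tubule injury genes were higher in kidney 2, with a median of 0.17, among them Krt20 at 0.569 and 1.44 CPM. Havcr1 was the 1 called member, and 3 of 13 had an unadjusted p below 0.05, beside 737 of all 18944 genes. The same kidney had higher levels of both tested skeletal muscle genes (median 0.93), both tested mesothelium genes (1.30) and all 5 tested acute phase genes (0.33). Several of these had few reads in kidneys 1 and 2: 3 and 6 for Msln and 2 and 12 for Upk3b (mesothelium), 8 and 17 for Mylpf (muscle), and 0 and 1 for Saa3 (acute phase). Acta1 of the muscle list had 83 and 144. The part of these lists in the called genes was not tested. DESeq2 and upper-quartile scaling called 0 genes, as did the fit with a common kidney term. Leaving out 43-29, 43-50, 43-75 or 43-76 also left 0, and leaving out 43-49 left 1. In the other 5 mice Havcr1 differed by at most 0.14, although its level ran from 0.768 CPM in 43-76 to 26.2 CPM in 43-29.

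In mouse 43-76 (TG-) no gene was called, 0% in each direction, with a smallest adjusted p of 1 and 527 genes at an unadjusted p below 0.05. DESeq2 called 0. It had the lowest BCV and SD of the 6 pairs, while 43-50 had the larger share of genes within 1.1-fold (83.0% against 82.7%). The names of the count columns of 43-76, like those of 43-75, differ in spelling between the kidneys (Kid and Kidn), for reasons the labels do not give.

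The size of the difference was larger in TG+ mice for 2 genes, 0.0163% of 12289, and larger in TG- mice for 0%. Bcat1 had a mean absolute difference that was larger in TG+ mice by 0.80 (adjusted p = 5.3e-16, limma with a trended prior), and Serpina1f by 0.90 (adjusted p = 1.6e-04). Without 1 mouse the value ran from 0.17 (without 43-76) to 1.51 (without 43-26) for Bcat1 and from 0.55 to 1.42 for Serpina1f, again without 43-76 and 43-26. For neither gene did the mice separate by genotype. The largest Bcat1 difference of all was -2.81 in the TG- mouse 43-26, against -1.81 in 43-49. These p-values rest on limma's trended prior for the spread, and with its robust prior 0 genes were called. Without 43-26 there were 4, without 43-29, 43-50 or 43-75 there was 1, and without 43-76 there were 0. Cyp7b1 did not pass (adjusted p = 0.085), nor did Grik5, a glutamate receptor subunit, and the pseudogene Sms-ps. The smallest p in the TG- direction belonged to Lrp2bp, Meis2, Abi3, Cmtm3 and She, which did not pass (adjusted p = 0.72 each). Over all 12289 genes, 58.7% had the larger mean difference in TG+ mice, and 609 genes against 238 had an unadjusted p below 0.05 in the TG+ and TG- directions.

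Many genes differed among mice of 1 genotype by more than between their kidneys. With the kidneys as the spread, 27.1% of 18944 genes differed among the 3 TG+ mice and 19.1% among the 3 TG- mice (edgeR, adjusted p below 0.05), a test added after the data were seen. Without 43-29 or 43-49 the TG+ count of 5138 genes was 3286 or 1602, and without 43-26 or 43-50 the TG- count of 3619 was 1538 or 1524. What belongs to a mouse and what belongs to the handling of its tissue cannot be told apart here. The mitochondrial gene mt-Nd3 had 59 and 55 reads in 43-49 (TG+) and 89 and 66 in 43-50 (TG-). In every other library it had 0 or 1. Of 14 circadian clock genes, 12 differed among the TG+ mice and 12 among the TG- mice, while their median SD between kidneys was 0.0745. The median over all genes was 0.0960, and 0.0648 over those with a mean of at least 5 CPM. The clock repressor Per2 was at 72.4 and 76.0 CPM in the kidneys of 43-49, 31.0 and 33.2 in 43-29, and 24.96 and 23.4 in 43-75. Nr1d1, the repressor REV-ERBα, was at 54.8 and 54.8 CPM in 43-50 against 117 and 121 in 43-26 and 129 and 128 in 43-76. It was also low in the TG+ mouse 43-49, with 2196 and 1919 reads, against 3223 to 4485 in 43-29 and 43-75. The clock gene Cry1 had most reads in the same mice, 409 and 339 in 43-49 and 265 and 226 in 43-50, against 56 to 120 elsewhere.

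Immediate early genes, which respond to stimuli within minutes, had a median SD of 0.105 between kidneys, against 0.368 between TG+ mice and 0.550 between TG- mice. Over all genes tested, the median SD was 0.120 between TG+ mice and 0.108 between TG- mice. Of 17 immediate early genes tested, 15 differed among mice of each genotype, beside 5138 (TG+) and 3619 (TG-) of all 18944 genes. Egr1 was at 56.5 and 56.3 CPM in 43-75, 21.3 and 20.7 in 43-29, and 10.1 and 7.03 in 43-49, and at 26.4 and 28.8 in 43-76, 8.72 and 7.60 in 43-26, and 5.35 and 6.61 in 43-50. Bcl6, a transcriptional repressor, was at 175 and 174 CPM in 43-76 against 31.8 and 30.7 in 43-26 and 25.8 and 26.3 in 43-50. Of the 27 HIF and glycolysis genes, 22 differed among the TG+ mice and 10 among the TG- mice, at a median kidney SD of 0.0494. Of the 12289 genes with a mean of at least 5 CPM, 4308 and 3155 did, so the TG- count is near the share over such genes. Red cell genes had a median SD of 0.558 between kidneys, against 0.191 between TG+ mice and 0.223 between TG- mice. The SD between kidneys is for single kidneys and holds the shift to kidney 2, while that between mice is for means of both kidneys. Genes named in these last 2 paragraphs were chosen after their values were seen.

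**Figure D5:**
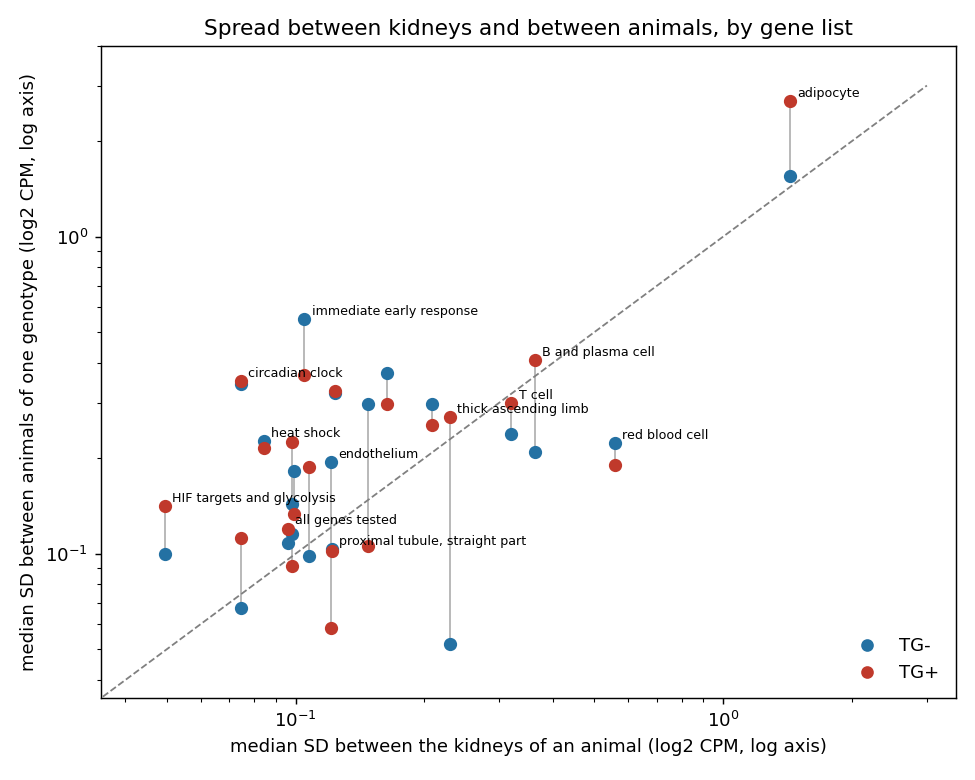
Median SD between the kidneys of a mouse (x axis) against the median SD between the mean levels of the 3 mice of 1 genotype (y axis) for each gene list, both in log2 CPM on log axes (names given for part of the lists), with a dashed line of equality. The circadian clock list lies well above the line at a kidney SD of 0.0745, and the red blood cell list lies below it at 0.558. The x value is for single kidneys and holds any shift shared by the pairs. The y value is for means of both kidneys, which vary less, so the line is only a guide.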

How the data were processed

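RNA from a cortex slice of each kidney was sequenced as 51-base single-end reads, and the authors named the Tuxedo suite for their analysis. The submitters' processing notes name the build mm9. The counting program, annotation and strand setting are not given in the sources used here. The authors deposited, for 37681 Ensembl genes and 12 libraries, raw read counts, RPKM values scaled by a method the header calls BUQ, and log2 RPKM. Per the file headers, the table also holds columns for the authors' comparison of the genotypes. Only the deposited counts were used here. Symbols came from GENCODE M21 (32642 genes matched).

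From the counts, genes were kept by edgeR's filterByExpr by animal, scaled by TMM and put through the quasi-likelihood test of edgeR 4.0.16 (R 4.3.3) at a Benjamini-Hochberg adjusted p below 0.05. The animal was a block, since the labels give both kidneys of each mouse its number. The correlation of every library with its partner is in the report. Kidney 2 minus kidney 1 was tested across animals, between genotypes and in each animal, with the spread of the last fit taken from the other 5 pairs, which are from both genotypes. The p-values rest on the spread between kidney pairs. The size of the difference was tested on absolute log2 CPM differences with limma 3.58.1, over genes with a mean of at least 5 CPM, and per animal with an exact permutation test. No pair of kidneys matched within sampling noise (chi-square per gene 1.91 to 7.18), so all 12 libraries were kept.

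Genes were named by rule, among those with a mean of at least 1 CPM and a symbol that is no clone or model name: per animal, the 3 called genes with the largest difference in each direction; across animals and between genotypes, up to 5 a direction, or the 3 with the smallest p where none passed; for size, the 5 with the smallest p a direction; the study's HIF markers; and of each described list its most abundant, its called and its most different members. Exceptions were the other called genes (Cp, Gm23935, Krt13, Gfpt2, Apob, Fbn1), the genes over 2-fold apart in several mice, and those said to be chosen after their values were seen. Members, lists and rules were chosen with earlier results of these data known. Alternatives were DESeq2 1.42.0, upper-quartile scaling, no filter, the study's threshold (fold over 2 or under 0.5, adjusted p below 0.01), other spreads, a common kidney term, other CPM limits and prior counts, thinned counts and leaving out each animal. Robust fits and the test among mice of 1 genotype were added after seeing the data. The kidney, genotype and size tests were tested on simulated data: most changed genes were recovered, but some unchanged genes were called too. Across animals, with nothing changed, as many genes were called as on the real counts. Calls here can therefore include genes without a difference. Python 3.11.15 with pandas 2.3.3, numpy 2.4.6 and matplotlib 3.10.9 made tables and plots.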

Additional observations from a re-analysis of the deposited data

Results flagged for a closer look

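Of 34 values checked over the 6 mice, 8 had 1 mouse far from the others by Dixon's test at the 95% level, which chance alone gives in about 1 of 20 groups. All but Cilp and Lrp2bp had been named because they were called in that same mouse. In 43-50 the log2 difference, kidney 2 minus kidney 1, was -2.32 for Smoc2, -2.35 for Cpxm2 and -2.50 for Cilp. In 43-26 it was 1.101 for Havcr1 and -0.94 for Lrp2bp, which lay between 0.36 and 0.759 CPM in that mouse. In 43-49 it was -1.59 for Igkv4-57-1. In 43-75 it was 4.52 for Lep and 4.50 for Plin1. A further 2 genes had opposite directions in all TG+ and all TG- mice, a difference that the interaction test did not call: Nnat, whose mean difference was higher in TG+ mice by 1.22, and Slc16a3, for which TG+ minus TG- was -0.44. The rule counts signs only, and some rest on few reads. Nnat had 30 and 28 reads in 43-26, and Slc16a3 had 20 to 54 in the TG- libraries.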

How the results depend on the processing

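Counts of called genes moved with nearly every choice. Without a filter on low counts, 105 genes were called across animals, 36 for the genotype difference, and 97, 133, 385, 110, 273 and 12 in 43-26, 43-29, 43-49, 43-50, 43-75 and 43-76. DESeq2 called 0 genes in 43-26, 1 in 43-29 and 18 in 43-49, and upper-quartile scaling 0 in 43-26. The study's threshold left 0 across animals, 0 in 43-26, 4 in 43-49 and 2 in 43-75. The robust edgeR fit called 1 across animals (Alas2), 3 in 43-29, 17 in 43-49 and 14 in 43-75. A common kidney term gave 0, 50, 4, 4 and 0 in 43-26, 43-29, 43-49, 43-50 and 43-75. Spread from the same genotype alone gave 19 in 43-49 and 25 in 43-50. In 43-26 it gave 3 genes, none shared with the main calls. Without the replicate block (unpaired), 0 genes were called across animals, and the block changed no call of the genotype difference. The test of size called 0 genes at a limit of 1 CPM, 1 at 20 CPM, 0 on square roots and 0 with the robust prior. The genotype gap in SD was 0.0175, and 0.00891 at a limit of 1 CPM. The adipocyte median in 43-75 was 1.05 over members at 5 CPM or more.

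Leaving out each animal in turn gave 0 to 28 genes across animals, 0 to 5 for the genotype difference (5 without 43-49), 0 to 1 in 43-26, 0 to 2 in 43-29, 5 to 57 in 43-49 (57 without 43-75), 2 to 5 in 43-50, 2 to 20 in 43-75, 0 in 43-76, and 0 to 4 for size. Among mice of 1 genotype it gave 1602 to 4823 (TG+) and 1524 to 2867 (TG-) genes. The gap in SD ranged from 0.0129 to 0.0228 and that in BCV from 1.83 to 2.66 percentage points. The Cilp genotype difference was 2.51, and ranged from -0.89 without 43-50, a reversal, to 2.82 without 43-26. With 3 mice per genotype the permutation test, which used no pairs of mice, cannot give an exact p under 0.1. Counting error alone would give an SD of 0.0874 to 0.104.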
